A study of Mus musculus with 10 samples.

Results

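The mitochondrial pyruvate carrier and the pyruvate dehydrogenase (PDH) complex form the route that takes pyruvate to acetyl-CoA, beside pyruvate carboxylase (PC), which takes it to oxaloacetate. The genes were chosen by name, as the carrier subunits Mpc1 and Mpc2, the complex subunits Pdha1, Pdhb, Dlat and Pdhx, the kinases Pdk1, Pdk2 and Pdk4 and the phosphatase Pdp1. Of these 10 genes 9 were named by a probe set in the array annotation, and Mpc2 was not analysed here. They were read among 19505 genes, each of the 9 through a single probe set. The arrays held 5 shPC and 5 Ctrl tumors, 1 array per tumor. Every tumor was an allograft of the mouse mammary cancer line M-Wnt, whose cells carried a doxycycline-inducible shRNA against Pcx, the gene of PC, and the host was a female C57BL6/J mouse of 8 to 12 weeks that received 50000 cells in a mammary fat pad. The shPC mice drank water with 150 µg/ml doxycycline and the Ctrl mice drank plain water, so the drug and the shRNA cannot be told apart, and no tumor carried an unrelated shRNA. RNA came from whole tumors with their host cells. In such bulk RNA fewer cells of a type and less RNA per cell cannot be told apart. The p-values refer to the spread among these arrays alone.

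Pyruvate made by glycolysis crosses the inner mitochondrial membrane through a carrier made of MPC1 and MPC2. Inside, PDH decarboxylates it in an E1 step (subunits encoded by Pdha1 and Pdhb), passes the acetyl group to coenzyme A in an E2 step (Dlat) and reoxidizes its lipoyl arms in an E3 step (Dld), with Pdhx tethering E3 to the core. PDH kinases phosphorylate E1 alpha and switch the complex off, and PDH phosphatases switch it on again. Pdk1 is a known target of HIF-1 in hypoxia, and Pdk4 is induced by PPAR factors, FOXO factors and glucocorticoids in fasting, in fat and muscle above all. A transcript level says nothing about the phosphorylation state of the complex, which was not measured on these arrays.

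The 3 members with the highest correlation with adipocyte genes across the tumors, as described further on, were Mpc1, Pdk2 and Pdk4, and their promoters are shown with that of Pdk1, the hypoxia-responsive kinase. Each run is the 250 bases before the RefSeq start site (build GRCm38.p6), written in the direction of transcription, and 9 of the 10 genes, all but Pdp1, matched an entry. Capitals mark each match, on either strand, to the cores of a hypoxia response element (ACGTG and GCGTG) or to the nuclear receptor half-site AGGTCA, which PPAR elements repeat.
Mpc1 promoter (chr17:8283537-8283786, plus strand): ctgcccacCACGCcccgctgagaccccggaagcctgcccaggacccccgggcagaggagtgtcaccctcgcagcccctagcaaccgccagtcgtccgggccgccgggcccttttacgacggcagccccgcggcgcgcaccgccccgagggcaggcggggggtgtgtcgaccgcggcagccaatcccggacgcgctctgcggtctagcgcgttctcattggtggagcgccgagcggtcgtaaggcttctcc
Pdk2 promoter (chr11:95041372-95041621, minus strand): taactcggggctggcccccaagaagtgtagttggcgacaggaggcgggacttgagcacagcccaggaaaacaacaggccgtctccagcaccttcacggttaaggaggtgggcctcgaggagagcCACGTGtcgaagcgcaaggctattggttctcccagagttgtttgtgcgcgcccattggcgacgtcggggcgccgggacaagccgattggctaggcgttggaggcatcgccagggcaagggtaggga
Pdk4 promoter (chr6:5496279-5496528, minus strand): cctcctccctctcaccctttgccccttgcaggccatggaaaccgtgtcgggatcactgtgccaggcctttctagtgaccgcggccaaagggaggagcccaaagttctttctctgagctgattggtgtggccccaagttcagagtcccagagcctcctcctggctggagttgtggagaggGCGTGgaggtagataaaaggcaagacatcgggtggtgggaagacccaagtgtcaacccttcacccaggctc
Pdk1 promoter (chr2:71872974-71873223, plus strand): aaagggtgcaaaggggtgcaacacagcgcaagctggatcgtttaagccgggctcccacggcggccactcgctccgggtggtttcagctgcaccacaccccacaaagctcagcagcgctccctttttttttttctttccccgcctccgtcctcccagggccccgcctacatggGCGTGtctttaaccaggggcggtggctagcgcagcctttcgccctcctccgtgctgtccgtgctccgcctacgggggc
The Pdk1 run held 1 match to GCGTG, which began 78 bases before the start site, and that of Pdk4 held 1 at 71 bases. Mpc1 had its 1 match at 242 bases. In Pdk2 the matches to ACGTG lay on both strands of the same palindrome and overlap. Among 27025 mouse promoters of the same length 38.6% held ACGTG or GCGTG, and of the 9 member promoters 8 did, all but that of Dlat. Both cores contain CG, and the member promoters were 58.8% to 73.6% G and C, beside a median of 52.0% over all promoters. The background was not matched for this, so the count does not show an excess of these cores. The members were not tested as a set. The half-site AGGTCA was in 0 of the 9 member promoters and in 13.8% of all. A match is a string of letters and not a binding site, and no match says only that these letters are not in this window.

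Pcx, the target of the shRNA, had log2 signals of 9.91, 4.69, 9.39, 4.49 and 5.15 in shPC 1 to 5, against 10.43, 7.24, 11.01, 7.79 and 9.54 in Ctrl 1 to 5. Thus shPC 1 and shPC 3 lay above the Ctrl mean of 9.20 and the other 3 shPC tumors below every Ctrl tumor. The means differed by -2.48 (adjusted p = 0.378 by limma, standard error 1.19). With the mean of adipocyte genes as a covariate, described further on, the difference was -0.35 (adjusted p = 0.704 by limma, standard error 0.25).

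No member passed the test between shPC and Ctrl tumors. By limma with Benjamini-Hochberg adjustment over all genes 0 of the 9 members had an adjusted p under 0.05 in either direction, against a background of 0% of all genes higher and 0% lower. At an unadjusted p under 0.05 0 of the 9 were counted, where 7.8% of all genes were higher and 6.25% lower. In 0 of the 9 did the groups not overlap, against 1.82% of all genes with every shPC tumor above every Ctrl tumor and 1.79% below, or 3.61% in either direction. The differences (shPC minus Ctrl on the log2 scale) ran between -0.38 and 0.32, 4 above 0 and 5 below, with a median of -0.12 beside 0.04 over all genes. The smallest p-values belonged to Pdp1 and Pdha1, both with a higher mean in shPC tumors.

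**Figure D1:**
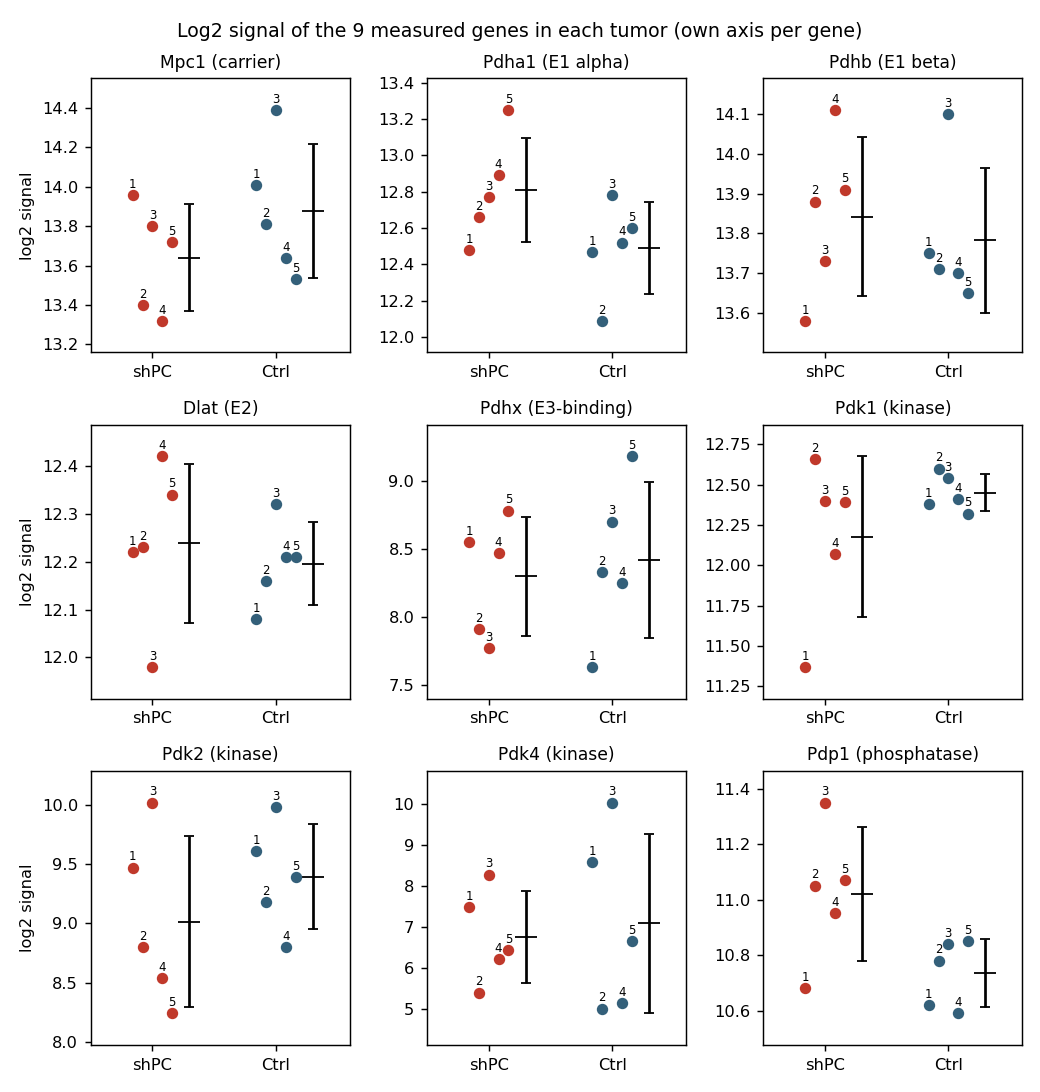
Log2 signal of the 9 measured genes in each tumor, with shPC tumors (red) left of Ctrl tumors (blue), the tumor's number above its point, and bars for mean ± SD (n = 5 each). The groups overlap in every panel, and the values of Pdk4 span 5.00 to 10.03 where those of Dlat span 11.98 to 12.42.

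The carrier gene Mpc1 encodes the subunit that pairs with MPC2 to form the pore. Its log2 signal was 13.96, 13.40, 13.80, 13.32 and 13.72 in shPC 1 to 5, against 14.01, 13.81, 14.39, 13.64 and 13.53 in Ctrl 1 to 5. Both shPC 2 and shPC 4 lay below every Ctrl tumor, and the other 3 lay within the Ctrl range. The means were 13.64 ± 0.27 and 13.88 ± 0.34 (SD, n = 5 each, shPC and Ctrl), and the difference of -0.24 (95% interval -0.66 to 0.19, adjusted p = 0.604 from limma) did not exceed the variation among the tumors.

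Pdha1 encodes the E1 alpha subunit, the site at which kinases and phosphatases act. It had 12.48, 12.66, 12.77, 12.89 and 13.25 in shPC 1 to 5, against 12.47, 12.09, 12.78, 12.52 and 12.60 in Ctrl 1 to 5. Thus 4 of 5 shPC tumors exceeded the Ctrl mean, with shPC 5 highest of all 10, and shPC 1 was level with Ctrl 1. The difference was 0.32 (standard error 0.18, 95% interval -0.07 to 0.71, adjusted p = 0.445 from limma), which read as log2 is 1.25-fold with an interval of 0.95 to 1.63. An exact permutation test over all splits of the tumors (two-sided) gave p = 0.103, or 0.456 adjusted over all genes.
Pdhb, which encodes the E1 beta subunit, had 13.58, 13.88, 13.73, 14.11 and 13.91 in shPC 1 to 5 and 13.75, 13.71, 14.10, 13.70 and 13.65 in Ctrl 1 to 5. Ctrl 3 stood apart from the other Ctrl tumors, level with the highest shPC tumor. The difference of 0.06 (95% interval -0.26 to 0.38, adjusted p = 0.879 from limma) became -0.01 when shPC 4 was left out.
Dlat encodes the E2 acetyltransferase that builds the core. It had 12.22, 12.23, 11.98, 12.42 and 12.34 in shPC 1 to 5, against 12.08, 12.16, 12.32, 12.21 and 12.21 in Ctrl 1 to 5. This was the steadiest member, with a whole range of 0.44 over the 10 tumors, and neither group lay apart. Its difference of 0.04 had a 95% interval of -0.23 to 0.31 (adjusted p = 0.903 from limma), which on the log2 reading is 0.85-fold to 1.24-fold. Without shPC 4 it was 0.00.
Pdhx encodes the protein that binds E3 to the core. It had 8.55, 7.91, 7.77, 8.47 and 8.78 in shPC 1 to 5 and 7.63, 8.33, 8.70, 8.25 and 9.18 in Ctrl 1 to 5. Ctrl 1 was lowest and Ctrl 5 highest of all, so the shPC values lay inside the Ctrl range. The difference was -0.12 (95% interval -0.76 to 0.51, adjusted p = 0.877 from limma), 0.01 without shPC 3 and 0.07 without Ctrl 5.

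Among the kinases, Pdk1 had 11.37, 12.66, 12.40, 12.07 and 12.39 in shPC 1 to 5, against 12.38, 12.60, 12.54, 12.41 and 12.32 in Ctrl 1 to 5. The Ctrl tumors were close together and shPC 1 lay lowest, so the SD was 0.50 in shPC and 0.12 in Ctrl (n = 5 each). The difference of -0.27 (95% interval -0.75 to 0.21, adjusted p = 0.596 from limma) was -0.07 without shPC 1.
Pdk2, the most widely expressed PDH kinase of mammals, had 9.47, 8.80, 10.02, 8.54 and 8.24 in shPC 1 to 5 and 9.61, 9.18, 9.98, 8.80 and 9.39 in Ctrl 1 to 5. Here shPC 4 and shPC 5 lay below all Ctrl tumors while shPC 3 was the highest of the 10. The difference was -0.38 (95% interval -1.11 to 0.36, adjusted p = 0.636 from limma).
Pdk4, the fasting-induced kinase, had 7.47, 5.39, 8.27, 6.21 and 6.42 in shPC 1 to 5, against 8.58, 5.00, 10.03, 5.14 and 6.64 in Ctrl 1 to 5. Both the lowest and the highest tumor of the series were Ctrl tumors, Ctrl 2 and Ctrl 3. Its means were 6.75 ± 1.13 and 7.08 ± 2.19 (SD, n = 5 each, shPC and Ctrl). The difference of -0.33 had a 95% interval of -2.38 to 1.73 (adjusted p = 0.901 from limma), so differences of over 2 log2 units downward and over 1 upward lie within it. Its sign turned without shPC 2 (0.01), without Ctrl 1 (0.05) and without Ctrl 3 (0.41). Ctrl 1 also stood apart by the mean log2 signal of 10 skeletal muscle genes, 8.33. The other Ctrl tumors had at most 4.86 and the shPC tumors 4.27 to 4.69. The list was uneven in Ctrl 1, with Acta1 at 12.07 and Myh4 at 12.11. Ckm was at 5.53 there and at most 5.16 elsewhere. The part of muscle RNA in the Pdk4 signal of Ctrl 1 was not tested.

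Pdp1 encodes the main catalytic subunit of PDH phosphatase. It had 10.68, 11.05, 11.35, 10.95 and 11.07 in shPC 1 to 5, against 10.62, 10.78, 10.84, 10.59 and 10.85 in Ctrl 1 to 5. All shPC tumors except shPC 1 lay above all Ctrl tumors. The means were 11.02 ± 0.24 and 10.74 ± 0.12 (SD, n = 5 each, shPC and Ctrl), a difference of 0.28 (standard error 0.14, 95% interval -0.03 to 0.60). The adjusted p was 0.405 from limma. The exact permutation test (two-sided) gave p = 0.0476, which was 0.352 adjusted over all genes, so the difference failed the correction.

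**Figure D2:**
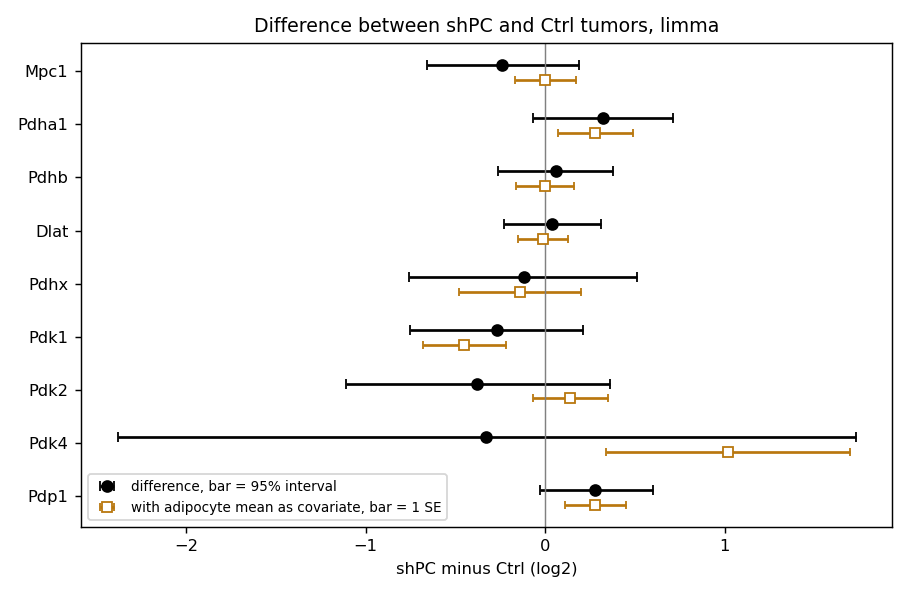
Difference between shPC and Ctrl tumors (log2) for each of the 9 genes, with 95% intervals from limma (black circles) and the same difference with the mean of adipocyte genes as a covariate (open squares, bars are 1 standard error). Every 95% interval contains 0, that of Pdk4 spans -2.38 to 1.73, and Pdk4 stands at 1.02 with the covariate.

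The members differed widely in their spread between tumors. The within-group SD (log2, pooled over the groups, n = 5 each) was 0.13 for Dlat, which placed it at the 3.09 percentile of all genes, and 0.19 for Pdhb and Pdp1, at the 13.3 and 13.6 percentiles. Pdha1, Mpc1 and Pdk1 had SDs of 0.27, 0.31 and 0.36, close to the median of 0.32 over all genes. At the other end were Pdhx (0.51, percentile 82.1), Pdk2 (0.60, percentile 88.8) and Pdk4 (1.74, percentile 99.3). Dlat and Pdhb thus varied less between tumors than most genes, and Pdk4 more than nearly all. The percentiles were not matched for signal level. Other bright enzyme genes lay at either end, with Ldha at 0.08 (percentile 0.215), Cs at 0.14 (percentile 4.03) and Me1 at 0.86 (percentile 95.4).

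**Figure D3:**
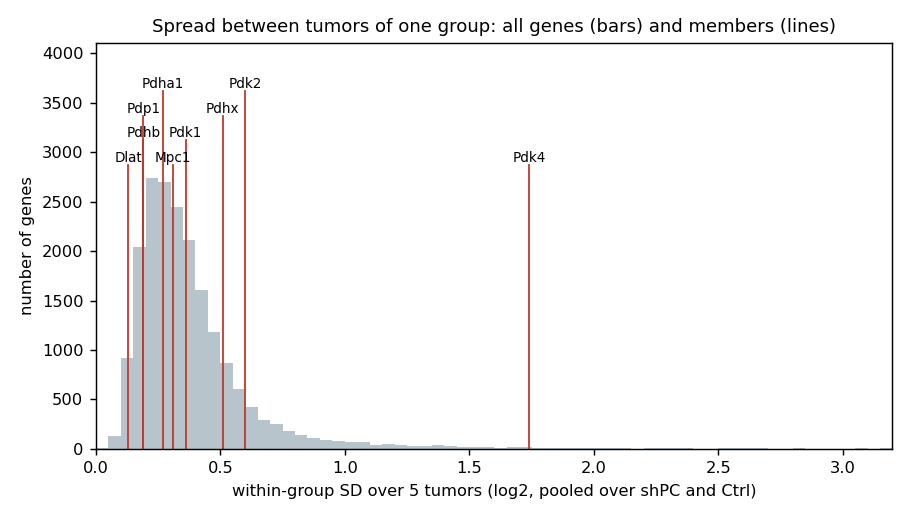
Number of genes (bars, with the few most variable genes beyond the right edge) by within-group SD of the log2 signal over 5 tumors per group, with the 9 members as red lines. Dlat (0.13) stands near the low end and Pdk4 (1.74) far in the upper tail.

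Mpc1, Pdk2 and Pdk4 had the highest correlations with the adipocyte genes of the tumors. By permutation they had p under 0.05 adjusted over the 9 members. In the limma fit adjusted over all genes no member passed. The tumors grew in a fat pad, and on the same arrays the mean log2 signal of 9 adipocyte genes (among them Adipoq, the hormone adiponectin, and the lipid droplet gene Plin1) was 12.42, 7.65, 11.52, 7.27 and 7.89 in shPC 1 to 5, against 12.11, 10.01, 13.35, 9.63 and 11.45 in Ctrl 1 to 5. Of the 9 adipocyte genes 9 had a lower mean in shPC tumors, 0 passed an adjusted p under 0.05 and the median difference was -1.93. Adipoq ran between 6.98 and 15.14. The largest gap in this mean, 1.74 of a range of 6.08, set shPC 2, shPC 4 and shPC 5 below the other tumors, and the next gap was 1.45.
With the adipocyte mean and the group in a single limma fit, 0 of the 9 members had an adjusted p under 0.05 for the adipocyte mean, against 0.58% of the other genes with a positive slope and 0.0154% with a negative one. Pdk2 came closest, with a slope of 0.27 (standard error 0.05, adjusted p = 0.0521), and it was followed by Pdk4 at 0.69 (standard error 0.16, adjusted p = 0.153) and Mpc1 at 0.12 (standard error 0.04, adjusted p = 0.366). The slope is the log2 difference of the gene per log2 unit of the adipocyte mean.
Over the 10 tumors Pdk2 had Pearson's r = 0.90 (permutation p = 0.00063, 0.00567 adjusted over 9 relations) and Spearman's rho = 0.87 (permutation p = 0.00193, adjusted 0.00868). An r at least as high was found for 0.549% of all genes. It was 0.91 without shPC 2 and shPC 4, the tumors farthest from the median, 0.80 over the 7 tumors above the gap, and 0.90 with the group means removed.
Mpc1 had r = 0.82 (permutation p = 0.00296, adjusted 0.0133) and rho = 0.88 (permutation p = 0.00173, adjusted 0.00868), and 1.44% of all genes reached that r. It was 0.66 without shPC 2 and shPC 4, 0.75 above the gap and 0.78 with the group means removed.
For Pdk4 the values were r = 0.75 (permutation p = 0.0138, adjusted 0.0415) and rho = 0.76 (permutation p = 0.0148, adjusted 0.0443), and 2.6% of all genes reached that r. Its r was 0.76 without shPC 2 and shPC 4, 0.93 above the gap and 0.80 with the group means removed. Among the 5 tumors with the lowest adipocyte means the order was not kept, since shPC 2, shPC 4 and shPC 5 had more Pdk4 and less adipocyte signal than Ctrl 2 and Ctrl 4.
The other 6 members had r between -0.46 (Dlat) and 0.03 (Pdhx) over the 10 tumors.

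**Figure D4:**
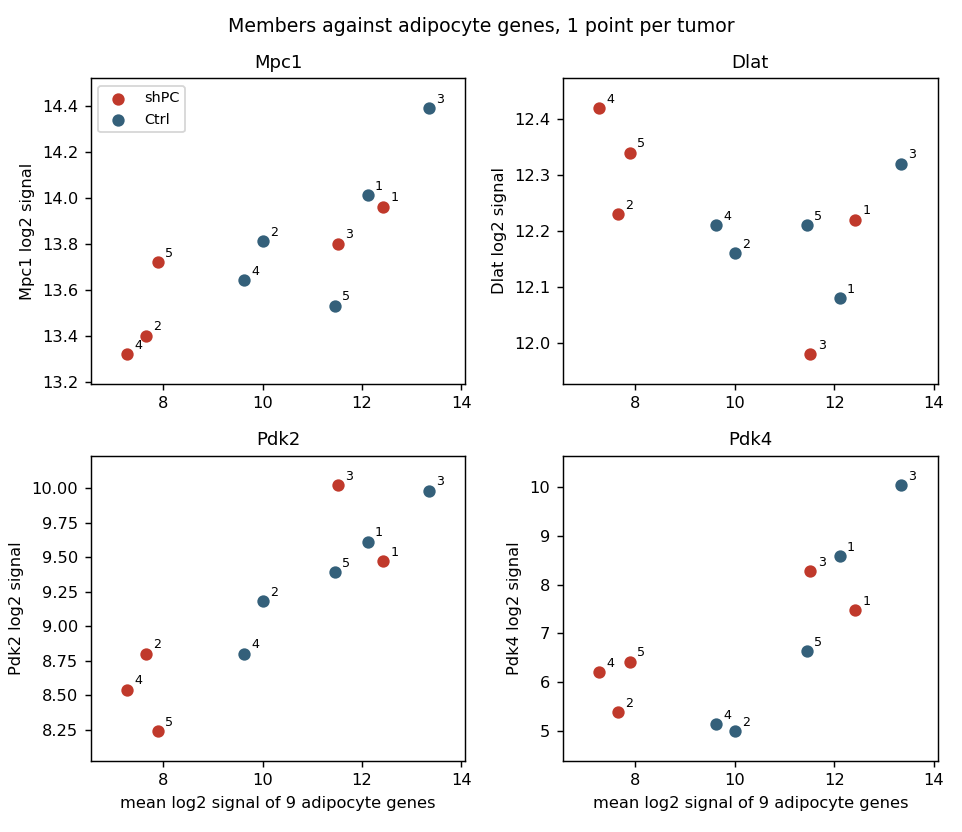
Log2 signal of Mpc1, Dlat, Pdk2 and Pdk4 (vertical axes) against the mean log2 signal of 9 adipocyte genes (horizontal axes), 1 point per tumor, shPC in red and Ctrl in blue, with the tumor's number. Mpc1, Pdk2 and Pdk4 lie higher where the adipocyte mean is high (r = 0.82, 0.90 and 0.75), while Dlat does not (r = -0.46).

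With the adipocyte mean as a covariate in limma the difference of Pdk4 was 1.02 (standard error 0.68, adjusted p = 0.676), that of Pdk2 0.14 (standard error 0.21, adjusted p = 0.861) and that of Mpc1 0.00 (standard error 0.17, adjusted p = 0.996). For these genes the value without the covariate was -0.33, -0.38 and -0.24. Pdp1 had 0.28 in both fits (adjusted p = 0.634 with the covariate), Pdha1 had 0.28 with it (adjusted p = 0.71) and 0.32 without, and Pdk1 had -0.45 (adjusted p = 0.593). Whether the signals of Mpc1, Pdk2 and Pdk4 came from fat cells of the host was not tested. The mean of 11 leukocyte genes also differed between the groups, at 10.43 to 12.47 in shPC tumors and 12.58 to 13.33 in Ctrl tumors. At an unadjusted p under 0.05 limma counted 6 of the 11 as lower in shPC tumors and 0 as higher. Over all genes 6.25% were lower and 7.8% higher. The list was not uniform, with 9 differences below 0 and 2 above. Cd3e, Cd8a and Nkg7 had -2.08, -1.91 and -1.87, while the myeloid genes Itgam, Adgre1 and Csf1r had 0.24, -0.19 and 0.01. With the leukocyte mean as a covariate the difference of Pdha1 was 0.09 and that of Pdp1 0.36 (adjusted p = 0.999 for both from limma). As this mean did not overlap between the groups, such a fit can hardly tell it from the group.

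Pdk1 was set against hypoxia genes, since HIF-1 induces it. The mean log2 signal of 12 hypoxia target genes, such as the glucose transporter Slc2a1 and the angiogenic factor Vegfa, ran between 11.62 and 12.44 in the shPC tumors and between 11.68 and 12.20 in the Ctrl tumors. The tumor with the lowest Pdk1, shPC 1, was also the lowest in this mean. Pdk1 had r = 0.56 with it over 10 tumors (permutation p = 0.0939, 0.423 adjusted over 9 relations) and rho = 0.61 (permutation p = 0.0672, adjusted 0.372). It was 0.49 without shPC 1 and shPC 5 and 0.69 with the group means removed (exact permutation, p = 0.0729, adjusted 0.467), so the relation did not pass. The hypoxia list itself had no common direction. Of its 14 genes with the HIF subunits, 2 were higher and 1 lower at an unadjusted p under 0.05 and 0 passed the adjusted test. Over all genes 7.8% were higher and 6.25% lower at that p. Ndrg1, a hypoxia-induced stress gene, had a difference of -1.21 and lay lower in every shPC tumor than in any Ctrl tumor. This held for 1.79% of all genes. Egln3, the HIF prolyl hydroxylase PHD3, had 0.82 and Car9, a carbonic anhydrase, 0.96 (adjusted p = 0.194, 0.221 and 0.329 for the 3 genes from limma). With the leukocyte mean as a covariate Ndrg1 had -0.57 and Car9 0.28, and without Ctrl 1 and shPC 5 Car9 had 0.47.

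In the rest of the PDH system no gene passed the adjusted test between the groups. The 8 further measured genes included E3, the kinase Pdk3, the phosphatase Pdp2 and the enzymes that make and attach lipoate. All 8 had a higher mean in shPC tumors (0.04 to 0.41, median 0.17 beside 0.04 over all genes). At an unadjusted p under 0.05 1 was higher and 0 lower, and after adjustment 0 passed. Over all genes 7.8% were higher and 6.25% lower at that unadjusted p, the shares that apply to the lists below too. The gene counted here was Lipt2, the octanoyl transferase that starts lipoate synthesis. It had 8.28, 8.83, 8.37, 8.34 and 8.50 in shPC 1 to 5, against 7.80, 8.33, 7.96, 7.97 and 8.20 in Ctrl 1 to 5, and the groups met only where Ctrl 2 exceeded shPC 1. The difference was 0.41 (standard error 0.15, adjusted p = 0.273 from limma). Pdha2, the E1 alpha form of the testis, was among the dimmest probe sets, with means of 2.49 in shPC and 2.45 in Ctrl tumors. Dld, which encodes E3, had 0.14 (adjusted p = 0.681 from limma).
In the sister complexes for 2-oxoglutarate, 2-oxoadipate and branched-chain ketoacids, 4 of 8 genes had differences above 0 and 4 below, 0 at an unadjusted p under 0.05, with a median of -0.05. Dlst, the E2 of the 2-oxoglutarate complex, had 0.30 (adjusted p = 0.384 from limma). Dhtkd1, of the 2-oxoadipate complex and counted above 0, was dim, with means of 2.98 in shPC and 2.79 in Ctrl tumors.
Of 10 genes of pyruvate and lactate handling 1 was higher at an unadjusted p under 0.05, the mitochondrial malic enzyme Me2 at 0.41 (adjusted p = 0.347 from limma), and 0 were lower. Pcx is in this list too. Ldha, the lactate dehydrogenase that competes for pyruvate, differed by 0.01.
Of 13 measured PPAR targets and factors known to act on Pdk4, 1 was higher and 1 lower at an unadjusted p under 0.05, and 0 passed the adjusted test. Cpt1a, the gate of mitochondrial fatty acid oxidation and like Pdk4 a PPAR target, had 0.39 (adjusted p = 0.284 from limma). Nr3c1, the glucocorticoid receptor, was lower in every shPC tumor, at 9.54 to 9.93, than in any Ctrl tumor, at 10.00 to 10.64, with a difference of -0.46 (adjusted p = 0.249 from limma).

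**Figure D5:**
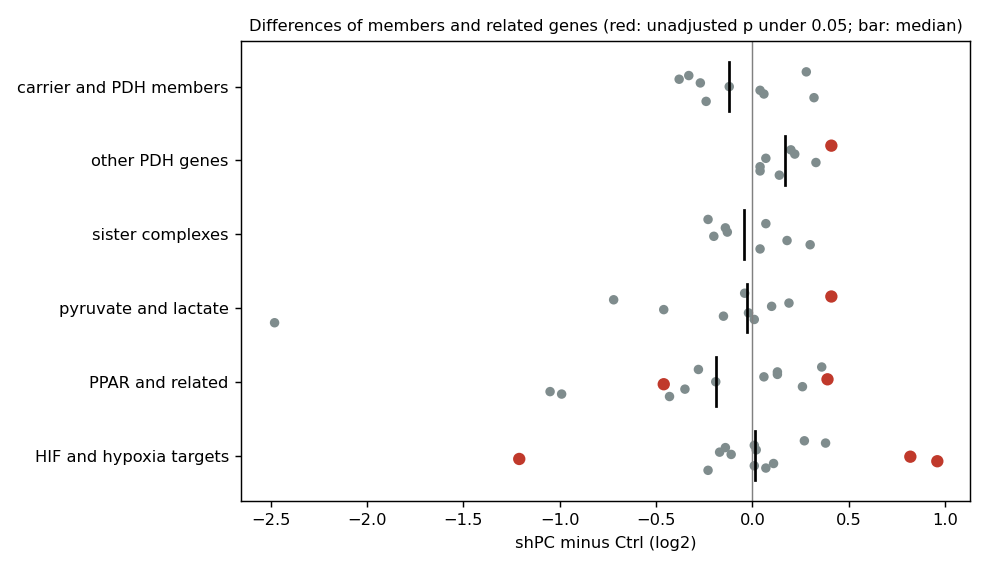
Difference between shPC and Ctrl tumors (log2, horizontal axis) of each measured gene in the list of members and 5 lists of related genes (rows), with the list median as a black bar and genes at an unadjusted p under 0.05 in red. The members lie between -0.38 and 0.32 with none in red, and Pcx is the lowest point at -2.48.

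Over the whole array, the median log2 signal over genes was at least 7.38 in 4 shPC tumors and 7.16 in shPC 5, against 7.35 to 7.47 in the Ctrl tumors, and r between any 2 arrays across genes was 0.960 to 0.993. Of 7 mesenchymal markers Vim was at 17.48 to 17.66 in all tumors. The mean of the 7 was 14.15 to 14.54 in shPC and 13.81 to 14.19 in Ctrl tumors, and 6 had a difference above 0. Cdh2, the adhesion molecule N-cadherin, had 1.01 (adjusted p = 0.235 from limma). It was higher in every shPC tumor than in any Ctrl tumor, which held for 1.82% of all genes. The epithelial marker Epcam was at 3.78 to 7.74 in shPC and 7.06 to 9.33 in Ctrl tumors. Of the other marker lists, the means of 8 mammary epithelial genes were 4.33 to 6.45 in shPC and 5.58 to 8.62 in Ctrl tumors, those of 6 endothelial genes overlapped with a median difference of 0.22, and those of 5 lymph node genes 5.54 to 6.73 in shPC and 6.30 to 7.59 in Ctrl tumors. Ctrl 1 stood apart by muscle genes and by the keratins Krt5 (14.24) and Krt14 (14.67), which were 9.04 or less elsewhere. The tumor shPC 5 stood apart by its low leukocyte mean of 10.43. Not all genes of that list were low in it. Cd3e (7.71) was lowest of all tumors there, while Itgam (15.22) and Csf1r (15.98) were highest. Without Ctrl 1 and shPC 5, 0 of the 9 members were called, Pdha1 had 0.20, Pdp1 0.24 and Pdk4 0.13.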

How the data were processed

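Whole M-Wnt tumors (5 shPC, 5 Ctrl) were measured on Clariom S mouse arrays after labelling with the WT PLUS kit, and the authors used Transcriptome Analysis Console for quality checks and statistics. The deposited table holds 22206 probe sets, whose values were read as log2 signals, the scale that console writes. The normalization method and the log base are not given in the sources used here. Array maxima were 19.04 to 19.19, above what log2 of a 16-bit scanner allows, so the base and every fold are not certain.

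Groups came from the labels. Of the probe sets 19572 named 1 gene, 0 several and 2634 were not listed in the annotation and were left out. The probe set with the highest mean stood for a gene (55 genes had several), which left 19505. The groups were compared in R 4.3.3 with limma 3.58.1 (shPC minus Ctrl, all 10 tumors, no filter), with Benjamini-Hochberg adjustment across the 19505 genes and a threshold of 0.05. Single genes were also tested by the exact permutation test, whose smallest p is 0.00794. Correlations across tumors used 100000 permutations, or the 14400 orders within groups once group means were removed. Added after seeing the data were a limma fit of every gene but the adipocyte genes on the adipocyte mean and the group, adjusted over those 19496 genes, and r without the 3 tumors of lowest adipocyte mean. The number of arrays limits the precision.

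The members and gene lists were chosen with earlier results of these data known. The rule for naming took the members, Pcx and the lowest p-values in each of the 5 lists of related genes (at most 4 genes). It also took the 3 closest genes in pattern for each of the 3 most variable members. Of the genes so chosen, Lias, Slc16a3 and Hif1a are not named elsewhere. Their differences were 0.22, -0.46 and -0.23 (adjusted p = 0.563, 0.504 and 0.549 from limma). Other listed genes (Slc2a1, Vegfa, Adipoq, Plin1, Ldha, Pdk3, Pdha2 and those that check the tissue) were named outside that rule, after their values were seen. Promoter sequences are RefSeq's, build GRCm38.p6, and the window farthest upstream was used for each gene. Alternatives were quantile normalization, median centring, a filter at the 30th percentile in at least 5 arrays, averaging a gene's probe sets and array weights (statmod 1.5.0). Others were an equal-variance t-test per gene, eBayes with trend and robust variances, a replicate block, and adipocyte or leukocyte means as covariates. The last were leaving out each tumor and, added after seeing the data, leaving out Ctrl 1 and shPC 5.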

Additional observations from a re-analysis of the deposited data

Results flagged for a closer look

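A tumor far from the other 4 of its group, by Dixon's test at the 95% level, was found in 4 of 72 groups of values examined, where chance alone gives about 5%. For Pdhb, the E1 beta subunit, Ctrl 3 had a log2 signal of 14.10 where the other Ctrl tumors had 13.65 to 13.75. Ctrl 3 was also far from its group for Ppm1k, the phosphatase of the branched-chain complex, at 9.40 against 8.57 to 8.75. It was the tumor with the highest adipocyte mean, 13.35, and whether that bears on either gene was not tested. For Nr3c1, the glucocorticoid receptor, Ctrl 2 had 10.64 against 10.00 to 10.16 in the others. For the mean of the skeletal muscle genes Ctrl 1 had 8.33 against 4.27 to 4.86.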

How the results depend on the processing

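Under all 21 alternatives 0 of the 9 members passed an adjusted p under 0.05. The count over all genes, 0 in the comparison as reported, was 1 with arrays centred on their median, 10 with trend and robust variances and 0 to 4 when 1 tumor was left out (4 without shPC 4, 1 without shPC 2 and 1 without Ctrl 4). An equal-variance t-test per gene gave 0 of 19505 after adjustment and 2658 at an unadjusted p under 0.05, where limma gave 2740. Mpc1, Pdha1, Pdk1 and Pdp1 kept the sign of their difference under every alternative, except that Mpc1 was 0.00 with the adipocyte covariate. With the adipocyte covariate the sign turned for Dlat (-0.01), Pdk2 (0.14), Pdk4 (1.02) and the malic enzyme Me1 (0.01), and with the leukocyte covariate for Dlat (-0.03), Pdk2 (0.25), Pdk4 (0.35), Ppm1k (0.07), Bckdha (0.14) and Dhtkd1 (-0.09). Without Ctrl 1 and shPC 5 it turned for Dlat (-0.01) and Pdk4 (0.13). Leaving out 1 tumor gave -0.85 to 0.41 for Pdk4, -0.32 to 0.07 for Pdhx, -0.01 to 0.14 for Pdhb and 0.00 to 0.11 for Dlat. It gave -0.63 (without shPC 3) to -0.18 (without shPC 5) for Pdk2 and -0.32 to -0.11 (without Ctrl 3) for Mpc1. Without shPC 1 the unadjusted p was 0.0486 for Pdha1 (difference 0.40, adjusted p = 0.346 from limma) and 0.021 for Pdp1 (0.37, adjusted p = 0.293). Over the alternatives the adjusted p was 0.346 to 0.999 for Pdha1 and 0.293 to 0.999 for Pdp1. Median centring moved the median difference of all genes to 0.14, where it was 0.04, and moved Pdha1 to 0.42 and Pdp1 to 0.38. The causes of these changes were not tested.

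The labels do not say whether the replicate numbers pair the tumors. Deviations of same-numbered tumors from their group means had r of 0.04 to 0.28 across genes. The Ctrl tumor with the highest r was the same-numbered one only for shPC 3. Pairing is thus not settled. With the replicate block 0 members and 0 genes were called, and the standard error of Pdk4 was 0.39 in place of 0.94 (difference -0.33, adjusted p = 0.731 from limma). For Pcx it was 0.51 in place of 1.19 (difference -2.48, adjusted p = 0.118 from limma). For Me1 it was 0.15 in place of 0.47 (difference -0.72, adjusted p = 0.119 from limma). Those of Pdhb and Dlat rose, from 0.14 to 0.16 and from 0.12 to 0.14.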

Other observations

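The members were also set against each other across the 10 tumors, which gave 36 relations. None passed after adjustment over them (smallest adjusted p = 0.254 for rho and 0.27 for r by permutation, over 10 tumors). By r the highest was Mpc1 with Pdk4, at r = 0.77 (permutation p = 0.00921, adjusted 0.27) and rho = 0.61 (permutation p = 0.0662, adjusted 0.336), with r = 0.63 without shPC 4 and Ctrl 3. Pdk2 with Pdk4 had r = 0.74 (permutation p = 0.015, adjusted 0.27) and rho = 0.73 (permutation p = 0.0201, adjusted 0.254), with 0.90 without shPC 4 and shPC 5. With the group means removed it had the smallest adjusted p, 0.108 (exact permutation within groups, r = 0.75). These 3 genes also have the highest r with the adipocyte mean, so the pairs are not independent of it.

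The genes whose signal over the 10 tumors was most like that of the 3 most variable members are given as a description, since each was the highest of all genes. For Pdk4 they were Lats2, a kinase of the Hippo pathway (r = 0.969), Hadh, a mitochondrial enzyme of fatty acid oxidation (0.948), and Dhrs2 (0.934). For Pdk2 they were Higd2a, a mitochondrial inner membrane protein (0.975), Gsta3, a glutathione transferase (0.964), and Chchd10, a mitochondrial protein of the intermembrane space (0.956). For Pdhx they were Ccdc167 (0.936), the olfactory receptor Olfr743 (0.923) and Actl9 (0.913).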
